A study of Bos taurus and Cervus elaphus with 24 samples.

Results

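The heat shock proteins and chaperones described here are 10 genes, HSPD1, HSPE1, HSPA1A, HSPA8, HSPA5, HSPH1, DNAJB1, HSP90AA1, HSP90AB1 and CACYBP, taken as every non-control probe whose gene name in the array files is one of these symbols. They hold 39 of the 43653 probes and 10 of the 25232 gene names on the array. HSP90AA1, HSP90AB1 and HSPA8 have 6 probes each, HSPA1A and HSPD1 have 5, HSPA5 has 4, CACYBP, DNAJB1 and HSPE1 have 2, and HSPH1 has 1. Blood RNA of 4 Holstein-Friesian cattle (HF, a high-yielding dairy breed), 4 Polish Red cattle (PR, a local breed) and 4 deer (organism label Cervus elaphus) was measured in 2 states, the dry period (the rest from milking before a birth) and peak lactation. The series text says that every animal gave blood in both states, which makes 6 groups of 4 arrays, and the labels' subject numbers are taken as animals. All 24 arrays carry bovine probes, with the animal's RNA in Cy5 and a reference pooled from 20 cattle outside the groups in Cy3. All groups share the collection tubes, which fix RNA in whole blood, and the matching extraction kit, while the source label reads peripheral blood nuclear cells. A level below is the log2 ratio of Cy5 to Cy3, so 0 means as much signal as the cattle reference, and errors are SDs over 4 arrays unless an SE is named.

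Chaperones hold unfolded or newly made proteins until they fold, and many of their genes are switched on by heat shock factors when unfolded protein accumulates. The HSP70 proteins bind and release clients in a cycle driven by ATP, which J proteins such as DNAJB1 start and exchange factors such as HSPH1 reset, and HSP90 proteins then mature clients such as kinases and steroid receptors. HSPD1 and its lid HSPE1 form the folding chamber of mitochondria, HSPA5 (BiP) serves the endoplasmic reticulum, and in cattle the heat shock genes of blood cells are commonly read as markers of heat load.

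One array was far brighter than the rest: PR dry replicate 1 reached a median of 2038 in Cy5, where all others lay at 109 to 255, and had 703 outlier spots, where others had at most 75. Its spike-in probes correlated with their known amounts at 0.331, those of HF animals 2 and 3 at 0.174 to 0.401 in either state, and those of the remaining arrays at 0.899 or more. Deer lactation replicates 2 and 4 had an SD of log2 ratios over probes of 0.52 and 0.66, against 0.80 to 0.85 on the other deer arrays. Each HF animal lies on a slide with its own arrays of both states, and deer lie on slides that hold no cattle. Markers of neutrophils, monocytes, T cells and B cells were above background on all 24 arrays for 8 of 9, 6 of 6, 8 of 8 and 6 of 6 genes measured, and so were 5 of 6 red cell markers. In such bulk RNA fewer cells of a type and less RNA per cell cannot be told apart. Nothing beyond the subject numbers says how animals were kept or sampled, so p-values speak for these animals only. They rest on the spread of arrays within groups. Unless a replicate block or animal terms are named, both arrays of an animal are treated as independent. All 39 probes were above background in Cy5 on all 24 arrays, none was saturated, and all entered every test.

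The probes are 60 bases long and were read from the array files, which place them on the cattle assembly UMD 3.1. Sequences are given 5′ to 3′ on the transcript strand for some of the probes on which the results below turn and in which several probes of a gene part ways. The first pair comes from homologous sites of both cytosolic HSP90 genes, where 46 of the 57 aligned bases are the same (80.7%) and the 11 that differ are in capitals, the first being T8A and the last A56T, counted from the HSP90AA1 probe's 5′ end. The HSP90AA1 probe lies at chr21:68599241-68599586 on the minus strand and the HSP90AB1 probe at chr23:17870164-17870346 on the plus strand, intervals longer than the probe because the genomic match is split.
HSP90AA1 A_73_P103241: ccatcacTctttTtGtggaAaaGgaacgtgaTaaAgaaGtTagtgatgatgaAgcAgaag
HSP90AB1 A_73_P103306: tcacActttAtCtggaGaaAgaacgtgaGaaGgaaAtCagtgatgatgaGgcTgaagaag
Other HSP90AB1 probes share a run of 27 bases, in capitals, at chr23:17871941-17872124 and chr23:17871971-17872154 (plus strand), and differ in the size of the deer signal.
HSP90AB1 A_73_P475368: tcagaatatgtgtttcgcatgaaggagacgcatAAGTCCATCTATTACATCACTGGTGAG
HSP90AB1 A_73_P102006: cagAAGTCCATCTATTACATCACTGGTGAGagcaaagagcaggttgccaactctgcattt
A pair of HSPA1A probes shares 29 bases, in capitals. It is followed by a probe at position 1615 of a different transcript record from that of the other HSPA1A probes. The files place them at chr23:27332925-27332984, chr23:27331486-27331515 (a listed match to 30 bases only) and chr23:27332196-27332255, all on the minus strand.
HSPA1A A_73_P275126: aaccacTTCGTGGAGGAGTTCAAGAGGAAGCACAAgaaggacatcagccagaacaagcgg
HSPA1A A_73_P268106: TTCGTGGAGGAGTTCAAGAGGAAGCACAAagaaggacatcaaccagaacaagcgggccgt
HSPA1A A_73_104629: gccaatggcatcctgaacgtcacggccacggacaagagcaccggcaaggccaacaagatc
The last lines show HSPA5 probes and some of the HSPA8 probes with a high deer signal, all in lower case, at chr11:96116101-96116578, chr11:96115610-96115669, chr15:34219228-34219287 and chr15:34217919-34217978 in the order printed, on the minus strand.
HSPA5 A_73_P210427: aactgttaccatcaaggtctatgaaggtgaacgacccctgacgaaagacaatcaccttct
HSPA5 A_73_P038581: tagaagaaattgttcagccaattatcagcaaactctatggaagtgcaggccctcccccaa
HSPA8 A_73_P448151: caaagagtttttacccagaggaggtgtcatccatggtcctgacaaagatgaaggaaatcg
HSPA8 A_73_P334021: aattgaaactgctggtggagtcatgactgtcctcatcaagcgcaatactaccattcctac
Exons and untranslated regions were not assigned, since no gene model of this assembly was used here. The brightest HSPA1A probe, A_73_P359866, lies at chr23:27350157-27350216 apart from the other 4, and the RefSeq gene table lists HSPA1B as a synonym of HSPA1A, so signals of near-identical HSPA1A copies cannot be separated.

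For each gene the brightest probe over all arrays stands for it where a single level is needed, and the plot of the 10 genes by array shows those levels. HSPD1, the mitochondrial chaperonin, had a level of 0.22 ± 0.16 in HF dry, 0.33 ± 0.16 in HF lactation, -0.63 ± 0.61 in PR dry, -0.11 ± 0.26 in PR lactation, 0.00 ± 0.26 in deer dry and 0.27 ± 0.27 in deer lactation. HSPE1, its lid, lay at 0.07 ± 0.17 and 0.17 ± 0.09 in HF, -0.37 ± 0.34 and -0.15 ± 0.25 in PR, and 0.53 ± 0.27 and 0.73 ± 0.05 in deer, dry period first. Both genes were lowest in PR dry, and in the order of group means every group's arrays overlapped those of the next.

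Among the HSP70 genes, stress-inducible HSPA1A lay at -0.51 ± 0.94 in HF dry and -0.41 ± 0.82 in HF lactation, -0.24 ± 0.80 and -0.15 ± 0.84 in PR, and -5.27 ± 0.60 and -4.83 ± 1.11 in deer. Constitutive HSPA8 lay at 0.07 ± 0.13 and 0.25 ± 0.14 in HF, -0.36 ± 0.49 and -0.02 ± 0.15 in PR, and 0.84 ± 0.18 and 0.91 ± 0.13 in deer. HSPA5 of the endoplasmic reticulum lay at 0.12 ± 0.13 and 0.19 ± 0.20 in HF, -0.83 ± 0.59 and -0.46 ± 0.32 in PR, and -0.25 ± 0.25 and -0.16 ± 0.17 in deer. The deer arrays were separate from all cattle arrays at the bottom for HSPA1A and at the top for HSPA8, while HSPA5 ran from PR through deer to HF with overlaps between all neighbouring groups. HSPH1, the exchange factor, lay at 0.16 ± 0.18 and 0.28 ± 0.13 in HF, -0.42 ± 0.42 and -0.08 ± 0.13 in PR, and -1.20 ± 0.35 and -0.98 ± 0.19 in deer, where both deer groups were lowest.

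DNAJB1, the J protein, lay at -0.12 ± 0.41 and 0.07 ± 0.26 in HF, 0.07 ± 0.35 and 0.34 ± 0.16 in PR, and 1.44 ± 0.24 and 1.24 ± 0.16 in deer, whose arrays were all above the cattle. Inducible HSP90AA1 lay at -0.23 ± 0.04 and 0.00 ± 0.14 in HF, -0.05 ± 0.41 and 0.06 ± 0.37 in PR, and 0.78 ± 0.30 and 0.47 ± 0.15 in deer. Constitutive HSP90AB1 lay at -0.04 ± 0.14 and -0.05 ± 0.19 in HF, -0.30 ± 0.42 and -0.24 ± 0.12 in PR, and 0.14 ± 0.29 and 0.40 ± 0.12 in deer, with neighbours in both orders overlapping. CACYBP, which binds calcyclin and takes part in ubiquitin ligase complexes, lay at 0.13 ± 0.25 and 0.17 ± 0.17 in HF, -0.61 ± 0.66 and -0.08 ± 0.22 in PR, and -1.20 ± 0.26 and -0.93 ± 0.09 in deer, with overlaps between all neighbouring groups. The wide PR dry spread of most genes came with 1 array: PR dry replicate 1 was the lowest PR dry array for 9 of the 10 genes, HSPA1A being the exception.

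**Figure D1:**
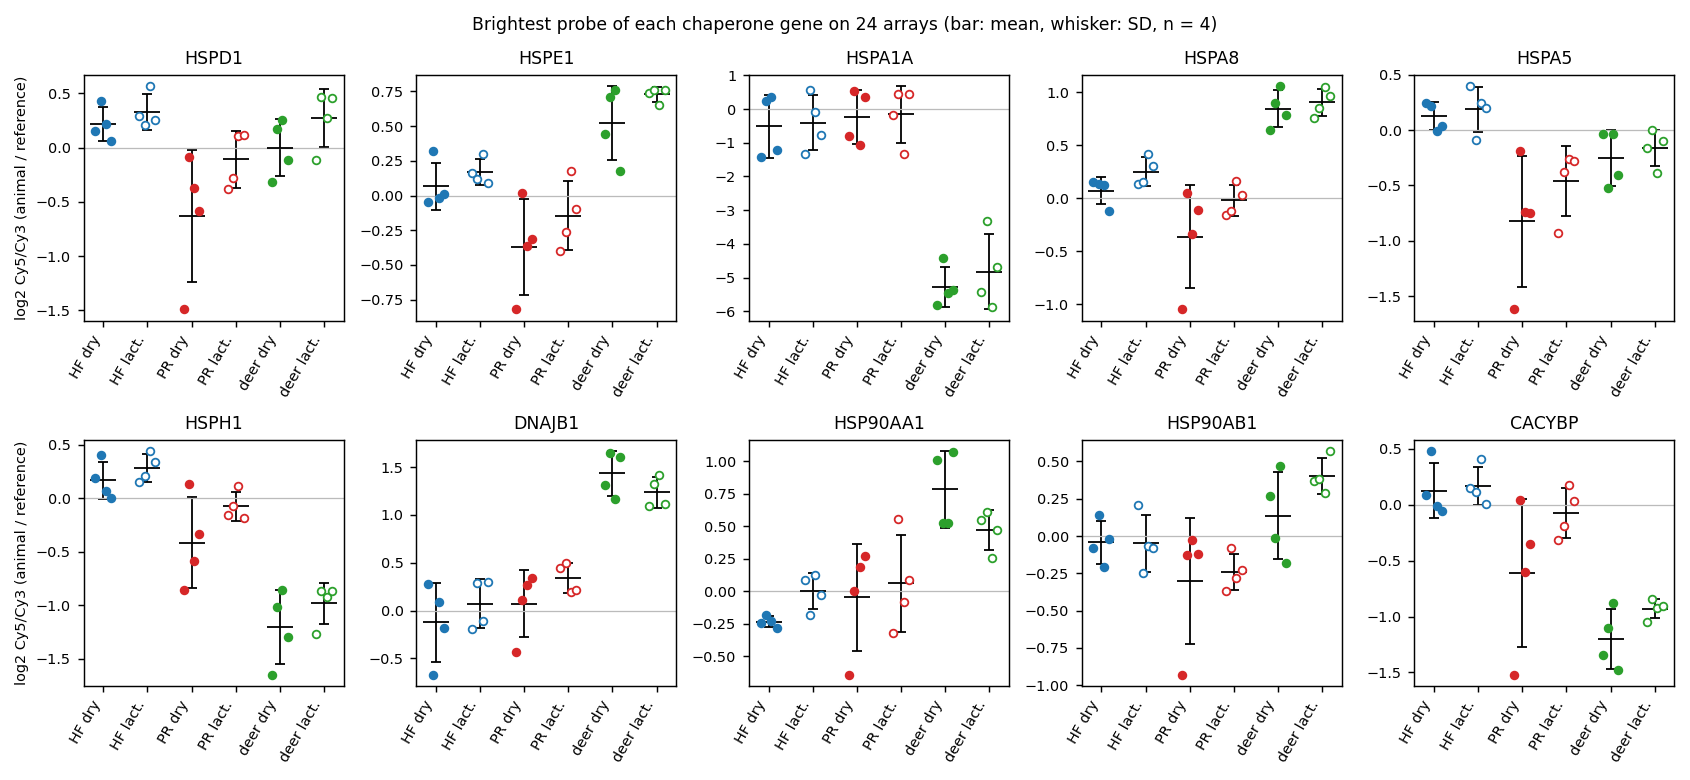
Level (log2 of Cy5 over Cy3, vertical axis) of the brightest probe of 10 chaperone genes on 24 arrays, in 6 groups of 4, filled for the dry period and open for peak lactation, with bars at the mean and whiskers of 1 SD. HSPA1A is near -5 in deer and within about 1.5 of 0 in cattle, and the lowest PR dry point of most genes is a single array.

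The first comparison the study was designed for, peak lactation against the dry period within a breed or species, called none of the 39 chaperone probes at an adjusted p under 0.05. The share called over all probes tested was 0.00906% in HF, 0% in PR and 0.00599% in deer. At an unadjusted p under 0.05 there were 5 member probes in HF, beside 7.66% of all probes, 6 in PR, beside 5.58%, and 3 in deer, beside 9.05%. The lowest adjusted p among the members was 0.457 in HF, 0.847 in PR and 0.529 in deer (limma). None of the member probes stands in the authors' deposited tables of 437, 158 and 576 transcripts that they listed for the same 3 contrasts in HF, PR and deer.

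The sizes behind these calls were small. In HF the brightest probes differed by 0.00 (HSP90AB1) to 0.24 (HSP90AA1) on the log2 scale, lactation minus dry. HSP90AA1 had the largest HF values: A_73_P225557 lay at -0.72, -0.41, -0.41 and -0.84 in dry replicates 1 to 4 and at -0.53, 0.09, 0.38 and -0.26 in lactation. All 4 HF animals were higher in lactation, with both states overlapping, and the difference was 0.51 ± 0.18 (SE, unadjusted p = 0.01, adjusted p = 0.457). The HSP90AA1 probe A_73_P311796 was the one member whose HF arrays did not overlap, at -0.24, -0.18, -0.23 and -0.28 in the dry period and 0.09, -0.18, 0.13 and -0.03 in lactation, where the nearest arrays are equal to 2 decimals. In HF 6.42% of all probes had groups that did not overlap, in PR, where no member did, 2.14%, and in deer, again with no member, 4.38%. The HSP90AA1 A_73_P311796 difference of 0.24 ± 0.18 (SE) had an adjusted p of 0.881.

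HSPA8 probes from the start and middle of the transcript had HF differences of 0.36 to 0.38 on A_73_P448151, A_73_P100171 and A_73_P334021, with adjusted p between 0.496 and 0.621. HF animal 1 was lower in lactation on each of them and the other 3 animals were higher. The remaining HSPA8 probes, from the end of the transcript, gave 0.17 to 0.18. Positions are those listed on the transcript, and the listed genomic match of A_73_P100171 covers 20 bases only, at chr15:34216262-34216281.

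In PR the largest differences of the brightest probes were 0.53 ± 0.22 (SE) for HSPD1, with a 95% confidence interval of 0.08 to 0.97, and 0.53 ± 0.22 for CACYBP, interval 0.08 to 0.99, both with an adjusted p of 0.847. HSPD1 lay at -1.49, -0.09, -0.37 and -0.58 in PR dry replicates 1 to 4 and at -0.38, -0.28, 0.11 and 0.12 in lactation. PR dry replicate 1 was far below the other arrays, and animal 2 was lower in lactation. Without that replicate the difference became 0.24 for HSPD1 and 0.23 for CACYBP, and HSP90AA1, HSP90AB1 and HSPA1A went from 0.11, 0.06 and 0.09 to -0.09, -0.14 and -0.09. Slides that held both PR states gave 1.11, 0.09 and 0.70 for HSPD1, the first from the slide of PR dry replicate 1, and 1.20, 0.42 and 0.45 for CACYBP, the other slides setting different animals against each other in part.

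In deer the brightest probes ran from -0.31 ± 0.18 (SE) for HSP90AA1 to 0.44 ± 0.56 for HSPA1A. HSPD1 was higher in lactation in 4 of 4 deer, by 0.02 to 0.57 on the brightest probe, with a mean difference of 0.28 ± 0.22 and an adjusted p of 0.719. It was 0.08 without deer lactation replicates 2 and 4, and -0.07 on the one slide that held both deer states, which sets different animals against each other. HSP90AA1 A_73_P449761 had a difference of -0.37 ± 0.17 and an adjusted p of 0.54. Without deer lactation replicates 2 and 4 the HSPA1A difference turned from 0.44 to -0.37.

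Over both cattle breeds together no chaperone probe was called either, beside 0.00299% of all probes, and 9 had an unadjusted p under 0.05, beside 9.07% of all probes. Signs leaned one way: 38 of 39 member probes were above 0, with a median of 0.13 against 0.01 over all probes tested, and the exception was DNAJB1 A_73_P262981 at -0.03 ± 0.10 (SE). In deer 16 of 39 were above 0, with a median of -0.04 against 0.01. Cell markers leaned as well, though none was called in cattle: all 8 neutrophil markers tested were above 0, with a median of 0.92 and 7 at an unadjusted p under 0.05, and so were all 6 monocyte markers, with a median of 0.52 and 5 at that p. Lymphocyte markers leaned the other way: 0 of 6 B cell, 0 of 5 NK and cytotoxic, 0 of 2 gamma delta T cell and 2 of 8 T cell markers were above 0. Their medians were -0.22, -0.25, -0.58 and -0.07. The mean level of the 9 neutrophil markers on the array ran from -1.21 to -0.42 in HF dry and -0.43 to 1.47 in HF lactation, and from -1.20 to -0.56 and -0.51 to 0.15 in PR. That of the monocyte markers ran from -0.95 to -0.56 and -0.43 to 0.31 in HF, and from -1.12 to -0.58 and -0.57 to -0.16 in PR. Their part in the chaperone values was not tested. Probes of a gene share their arrays and their RNA, so these 39 signs are not separate observations. Without PR dry replicate 1 the cattle count above 0 was 29 of 39 and the median 0.09, and with the array's position on the slide in the model it was 22 of 39 and 0.02.

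HSPA8 had the lowest p among the cattle values. Its probe A_73_P448151, printed above, gave 0.33 ± 0.10 (SE, interval 0.12 to 0.54, unadjusted p = 0.0036, adjusted p = 0.276), and 6 of 8 cattle were higher in lactation, with animal differences from -0.16 to 0.75. HSP90AA1 A_73_103158 followed at 0.37 ± 0.13 (adjusted p = 0.335), higher in 7 of 8 cattle. HSPD1 gave 0.32 ± 0.15 (adjusted p = 0.542) and was higher in 6 of 8, with 1.11 in PR animal 1 as the largest.

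Tests of whether the lactation effect itself differed called no member. HF minus PR effects had 0 calls among members and over all probes (0%), with 0 members at an unadjusted p under 0.05 beside 2.96% of all probes. Deer minus cattle effects also had 0 calls in both (0%), with 6 members at an unadjusted p under 0.05 beside 8.41%.

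**Figure D2:**
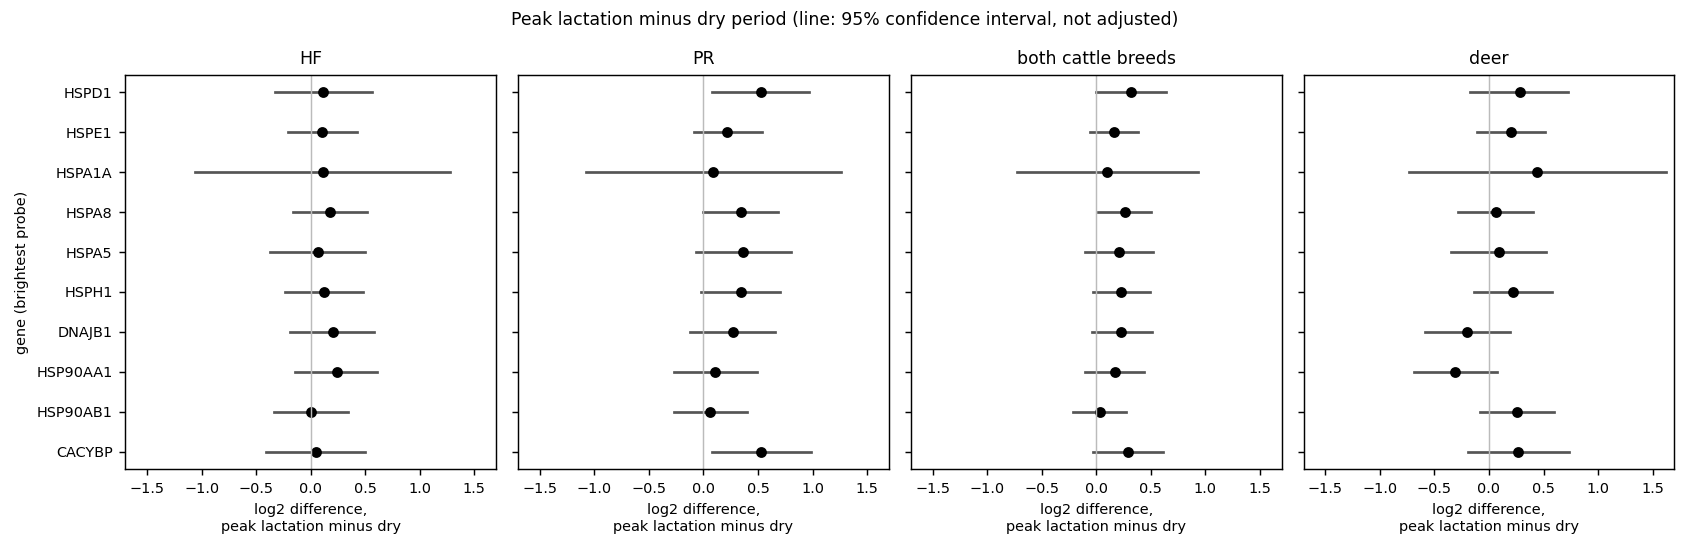
Lactation minus dry difference (log2, horizontal axis) of the brightest probe of 10 chaperone genes, in separate panels for HF, PR, both cattle breeds together and deer. Lines are 95% confidence intervals that are not adjusted for the number of probes. HSPA1A has the widest intervals, from -1.06 to 1.28 on its brightest probe in HF, and no probe passed the adjusted test.

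HSPA1A stood out among the members for how much individual cattle differed from each other in both states, a pattern chosen for description after its values were seen. On the brightest probe, A_73_P359866, HF animals 1 to 4 lay at -1.41, 0.23, 0.37 and -1.23 in the dry period and at -1.33, 0.55, -0.08 and -0.76 at peak lactation. PR animals 1 to 4 lay at -0.79, 0.52, -1.06 and 0.36 and then at -0.17, 0.44, -1.34 and 0.46. HF animals 1 and 4 and PR animal 3 were low in both states, HF animal 2 and PR animals 2 and 4 were high in both, and no animal of either breed differed by more than 0.62 between states.

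An F test of animal terms within breeds in limma, also added after the values were seen, called 363 of 33480 probes (1.08%). It called 3 of 39 members, all of them HSPA1A: A_73_P359866 (F = 15.1, adjusted p = 0.00935), A_73_104629 (F = 9.57, adjusted p = 0.0416) and A_73_P275126 (F = 9.39, adjusted p = 0.0438). A_73_P268106 had an adjusted p of 0.0628 and A_73_P474283 one of 0.225, and no probe of the other 9 genes was called. The brightest probe was also called among HF animals alone (adjusted p = 0.0247, 0.806% of all probes called) and among PR animals alone (adjusted p = 0.0449, 0.579% called). With Cy5 taken alone no HSPA1A probe was called, with an adjusted p of at least 0.116, with median centring 1 was and the call among PR animals was lost, and without PR dry replicate 1 all 5 were.

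The 5 HSPA1A probes followed each other over the cattle arrays, with correlations of 0.75 to 0.98 over 16 arrays that come from 8 animals. The probe A_73_104629 lay at -1.24, -0.30, -0.15 and -1.13 in HF dry and -1.30, 0.23, -0.24 and -0.66 in HF lactation, the same animals being low. Its PR values were -0.20, 0.03, -0.90 and 0.00 in the dry period and -0.33, -0.16, -1.05 and 0.06 in lactation. In HF both arrays of an animal share a slide, so animal and slide cannot be told apart there. Both arrays of PR animals 1 and 4 share a slide as well, while those of PR animals 2 and 3 lie on different slides. On the slide that carries HF animal 4 in both states, PR dry animal 2, of the other breed, lay at 0.52 beside -1.23 for HF dry animal 4. On another slide PR animal 4 lay at 0.36 and 0.46 beside -1.34 for PR lactation animal 3. The slide was not a term of the F test, and its part in these values was not tested. HF animals 2 and 3 are those whose arrays had weak spike-in correlations in both states, and PR dry replicate 1 had one as well. Their part in these values was not tested.

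**Figure D3:**
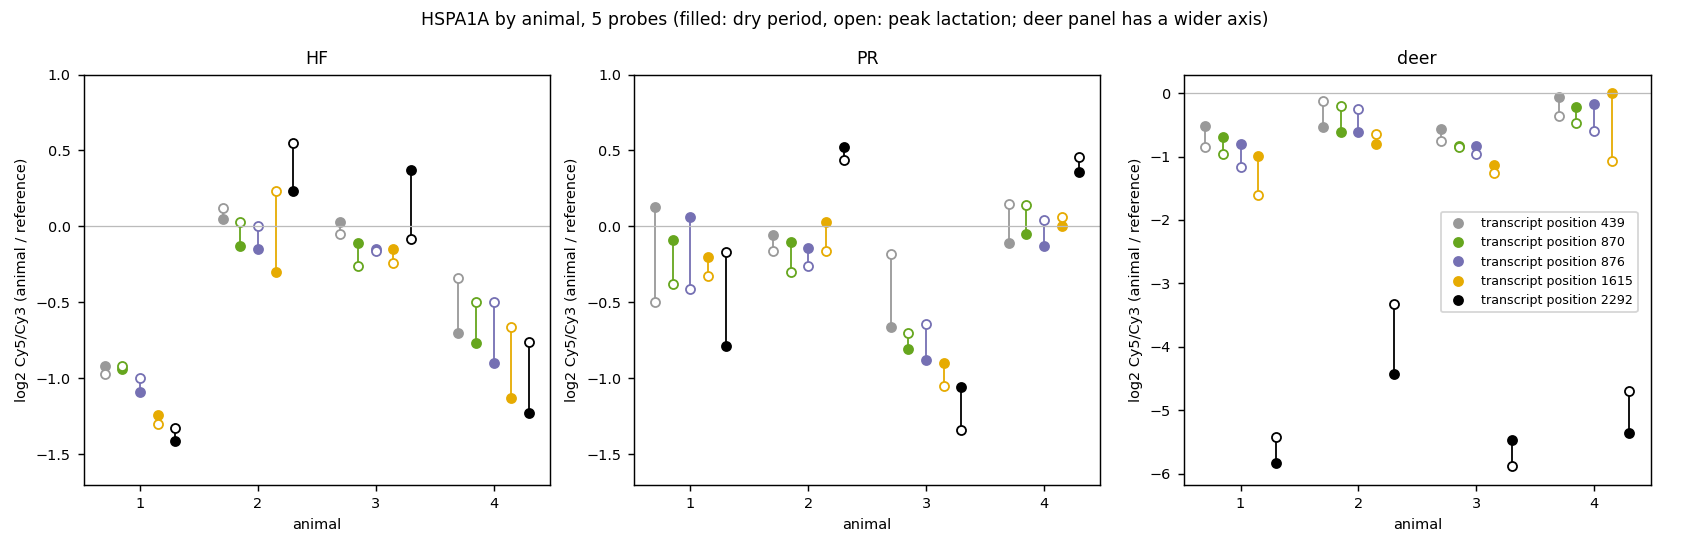
HSPA1A level (log2 of Cy5 over Cy3, vertical axis) of 5 probes in each animal, filled in the dry period and open at peak lactation, with a wider axis for deer. HF animals 1 and 4 and PR animal 3 are low on most probes in both states, and in deer only the probe at transcript position 2292 is far below the others.

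Set against each other in the dry period, the HF and PR arrays differed on some probes of HSPA5 and HSPD1. Most of these arrays lay on slides without the other breed, so breed and slide largely cannot be told apart. The test called 3 of 39 member probes (7.69%), all higher in HF, beside 2.62% of all probes in either direction and 2.32% in that direction. HSPA5 A_73_102684 lay at 0.24, 0.22, -0.01 and 0.04 in HF dry and at -1.62, -0.19, -0.74 and -0.75 in PR dry. All HF arrays were above all PR arrays, and the difference was 0.95 ± 0.21 (SE, interval 0.51 to 1.38, 1.93-fold, adjusted p = 0.0287). HSPA5 A_73_P038581, printed above, lay at -0.08, -0.16, -0.34 and 0.01 in HF dry and at -1.44, -0.33, -0.73 and -0.76 in PR dry. PR replicate 2 lay just above HF replicate 3 and the other arrays were apart, and the difference was 0.67 ± 0.16 (SE, adjusted p = 0.0323). HSPD1 A_73_121148 lay at 0.15, 0.43, 0.22 and 0.06 in HF dry and at -1.49, -0.09, -0.37 and -0.58 in PR dry, without overlap, a difference of 0.85 ± 0.22 (SE, 1.8-fold, adjusted p = 0.0413).

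The 3 calls, in the order given, changed with the arrays and the model used. Without PR dry replicate 1 the differences were 0.68, 0.46 and 0.56, with adjusted p of 0.0609, 0.0703 and 0.0946. Leaving out any HF dry array, or PR dry replicate 3 or 4, also ended all 3 calls, with adjusted p from 0.0519 to 0.148, but the differences stayed at 0.91 to 0.99, 0.62 to 0.74 and 0.78 to 0.94. Calls over all probes fell from 862 to between 1 and 438 under the same settings. Leaving out PR dry replicate 2 raised the member count to 10 and that over all probes to 4191. With the slide as a fixed block they were 0.28, 0.29 and 0.19, each with an adjusted p of 1. The one slide that held both breeds in the dry period, HF animal 4 and PR animal 2, gave 0.23, 0.34 and 0.15. With no filter of probes the HSPD1 call was lost (adjusted p = 0.0512). Reference signal in Cy3 moved the same way as Cy5: for the HSPA5 probes Cy5 differed by 1.28 and 1.13 and Cy3 by 0.33 and 0.45, and for HSPD1 by 1.38 and 0.53. Their part in the calls was not tested.

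Probes closer to the start of the same transcripts gave smaller values and were not called. The HSPA5 probes A_73_P400026 and A_73_P210427 gave -0.20 ± 0.16 and -0.10 ± 0.12 (SE). The HSPD1 probes A_73_P260436, A_73_P303616 and A_73_P094781 gave 0.06 ± 0.15, 0.26 ± 0.16 and 0.32 ± 0.20, the last 2 on the same side as the called probe with adjusted p of 0.385 and 0.37. The listed genomic match of A_73_P303616 covers 39 bases only, at chr2:86438979-86439017, and overlaps that of the called probe. Across the 16 cattle arrays the 4 HSPA5 probes correlated from -0.28 to 0.97 and the 5 HSPD1 probes from -0.09 to 0.79. With all probes of a gene averaged, neither gene was called. HSPA5 then gave 0.33 (adjusted p = 0.121) and HSPD1 gave 0.39 (adjusted p = 0.109). Other probes near the threshold in the dry period were those of CACYBP, 0.73 ± 0.22 and 0.66 ± 0.20 (adjusted p = 0.0678 and 0.0663), HSPH1, 0.58 ± 0.17 (adjusted p = 0.0673), and HSPD1 A_73_P129801, 0.45 ± 0.13 (adjusted p = 0.0673), all higher in HF. HSPA8 A_73_P100171, at -0.49 ± 0.14 (adjusted p = 0.0593), was lower in HF. The HF and PR dry arrays did not overlap for 4 members, beside 9% of all probes: HSPA5 A_73_102684, both HSPD1 probes named and HSPA8 A_73_P100171.

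At peak lactation no slide held arrays of both breeds, so breed and slide cannot be told apart in this state. No member was called between the breeds, beside 0% of all probes, and 6 members against 14.2% of all probes had an unadjusted p under 0.05. HSPD1 A_73_P129801 came closest, at 0.08, 0.13, 0.34 and 0.13 in HF and -0.55, -0.51, -0.15 and -0.30 in PR. The groups were apart, and the difference of 0.55 ± 0.13 (SE) had an adjusted p of 0.0951. HSPA5 A_73_102684 gave 0.65 ± 0.21 (adjusted p = 0.166) and A_73_P038581 gave 0.52 ± 0.16 (adjusted p = 0.138). In lactation 5 members had groups that did not overlap, beside 11.9% of all probes: both of these HSPA5 probes, both HSPD1 probes and HSPH1.

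**Figure D4:**
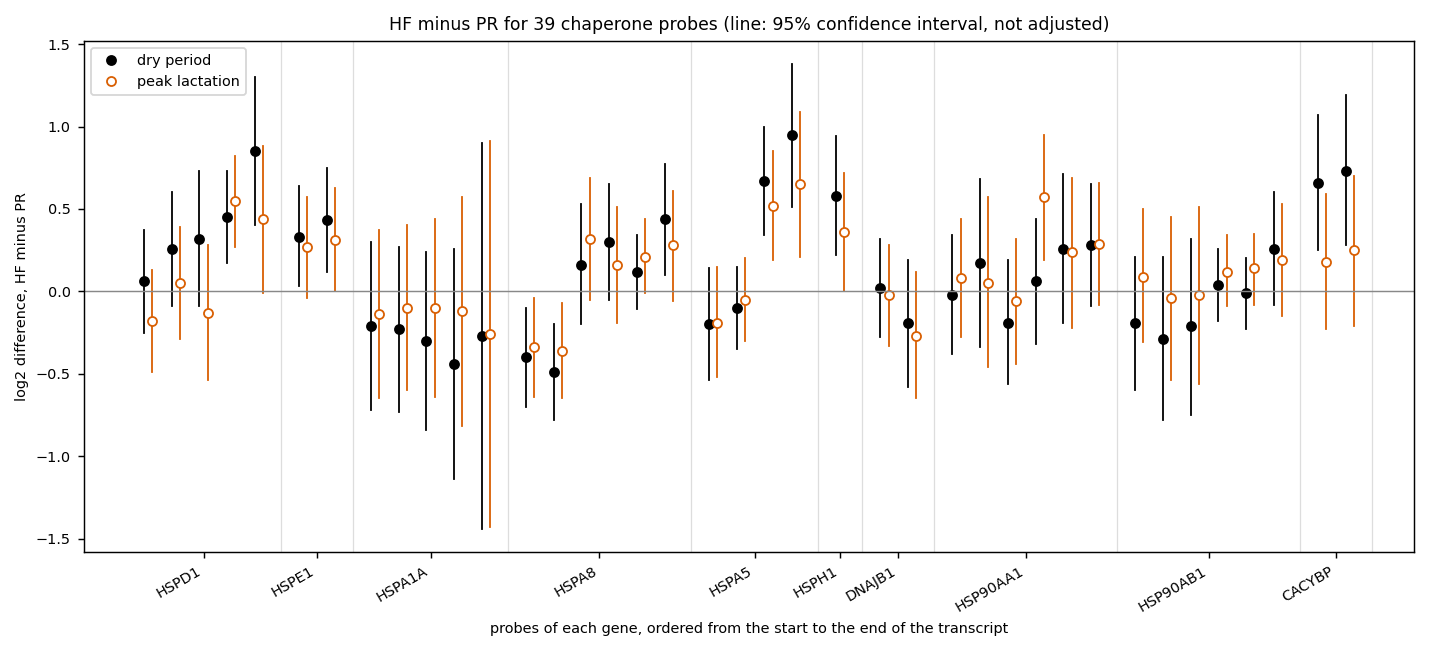
HF minus PR difference (log2, vertical axis) of 39 chaperone probes in the dry period (filled) and at peak lactation (open), with 95% confidence intervals that are not adjusted. The last probes of HSPA5 and HSPD1 reach 0.95 and 0.85 in the dry period, while probes nearer the start lie at -0.20 and -0.10 for HSPA5 and rise from 0.06 through 0.26 and 0.32 to 0.45 along HSPD1.

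Deer and cattle were set side by side on the same bovine probes. The level in deer blood and how well deer RNA binds a cattle probe both enter such a difference and cannot be told apart, nor can species and slide. In the dry period 26 of 39 members were called (66.7%), 21 higher and 5 lower in deer, beside 56.6% of all probes, 26.2% higher and 30.4% lower. At peak lactation 22 were called (56.4%), 16 higher and 6 lower, beside 48.6% of all probes, 21.7% higher and 26.9% lower. At an unadjusted p under 0.05 there were 28 members in the dry period, beside 60.7% of all probes, and 25 in lactation, beside 54.1%. Taken in either direction, the shares of members called were near those of all probes. By direction they were not: more members were called higher than lower, while over all probes fewer were. Probes of a gene are not separate observations. The median member difference was 0.41 in the dry period and 0.31 in lactation against 0.01 and 0.00 over all probes, and 14 member probes were called higher and 5 lower in both states.

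HSPA8 was higher in deer on all 6 probes in the dry period, by 0.61 to 1.23, and on 5 of 6 in lactation. Its brightest probe, A_73_P341276, lay at 0.64, 0.90, 1.06 and 0.78 in deer dry and at 0.76, 0.85, 1.05 and 0.96 in deer lactation. The 8 cattle arrays of the dry period ran from -1.05 to 0.15 with a median of -0.03, and those of lactation from -0.16 to 0.42 with a median of 0.14. All deer arrays were above all cattle arrays in each state, and the differences were 0.99 ± 0.14 (SE, adjusted p = 3.4e-06) and 0.79 ± 0.14 (adjusted p = 7.51e-05). A_73_P403651 was the HSPA8 probe that was not called in lactation, at 0.32 ± 0.15 (adjusted p = 0.0711).

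Both HSPE1 probes were higher in deer, by 0.63 and 0.68 in the dry period and 0.70 and 0.72 in lactation, and both DNAJB1 probes were too, by 1.46 and 0.37 and then by 1.03 and 0.32. The smaller values are those of A_73_P262981, which lost its dry call with array position in the model (0.08, adjusted p = 0.677) and without deer dry replicate 4 (0.30, adjusted p = 0.0732). Its lactation call was lost without replicate 1 or 3 of HF or deer or replicate 3 or 4 of PR (0.24 to 0.31, adjusted p up to 0.17) and with Cy5 alone (0.39, adjusted p = 0.267). DNAJB1 A_73_110248 lay at 1.31, 1.65, 1.17 and 1.61 in deer dry, above a cattle range of -0.67 to 0.34. HSPH1 was lower in deer, at -1.65, -1.02, -0.86 and -1.30 in the dry period against -0.86 to 0.40 in cattle, a difference of -1.08 ± 0.15 (SE, adjusted p = 2.83e-06), and at -1.09 ± 0.15 in lactation. The lowest cattle array, PR dry replicate 1, and the highest deer array of the dry period were both at -0.86.

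For several genes the result depended on the probe. HSPA5 was higher in deer on A_73_P038581, by 1.59 ± 0.14 and 1.39 ± 0.14 (SE), and on A_73_P210427, by 1.22 and 0.88, while A_73_102684 gave 0.10 and -0.02 and A_73_P400026 gave -0.02 and -0.30, none of these 4 called. On A_73_P038581 the deer arrays lay at 1.19, 0.96, 1.13 and 1.14 in the dry period, and the cattle arrays from -1.44 to 0.01. HSP90AB1 A_73_P102006 was higher by 1.39 ± 0.09 and 1.30 ± 0.09, and A_73_P475368, which shares 27 bases with it, by 0.44 and 0.36. The other 4 HSP90AB1 probes gave 0.31 to 0.48 in the dry period, where A_73_P226217 was called (0.46 ± 0.17, adjusted p = 0.0247), and 0.31 to 0.54 in lactation, where the brightest, A_73_P040031, was called (0.54 ± 0.14, adjusted p = 0.003). The A_73_P226217 call was lost with array position (0.33, adjusted p = 0.252) and without deer dry replicate 1 or 3 (adjusted p = 0.121 and 0.0615).

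HSP90AA1 A_73_P311796 was higher in deer by 0.92 ± 0.16 and 0.44 ± 0.16 (SE), whereas A_73_P103241 was lower, at -0.80 ± 0.21 and -1.30 ± 0.21. The lactation call of A_73_P311796 was lost without PR lactation replicate 1 (0.38, adjusted p = 0.051) or deer lactation replicate 1 (0.41, adjusted p = 0.0706). At the homologous site shown above, HSP90AB1 A_73_P103306 gave 0.48 ± 0.22 and 0.50 ± 0.22 and was not called (adjusted p = 0.0732 and 0.0722). The HSP90AA1 probes A_73_P449761, A_73_P225557 and A_73_P129021 were also called higher in deer in the dry period. Their deer medians were 0.39, -0.29 and 0.07, against -0.07, -0.59 and -0.39 in cattle. With array position in the model these calls were lost (0.33, 0.35 and 0.46, adjusted p = 0.186, 0.181 and 0.163). None of them was called in lactation, and HSP90AA1 A_73_103158 was called in neither state. CACYBP A_73_112993 was lower, at -0.96 ± 0.19 and -0.98 ± 0.19, while A_73_P373356 gave 0.47 in the dry period, called, and 0.31 in lactation, not called. The A_73_P373356 call was lost with array position (0.32, adjusted p = 0.25) and without deer dry replicate 2 or 3 (adjusted p = 0.068 and 0.0656). HSPD1 probes were called in both directions. A_73_P094781 was lower in both states, at -0.49 and -0.57, but lay at -0.11 and -0.28 with median centring, not called, and at 0.03 in the dry period with Cy5 alone. A_73_P260436 was higher in the dry period at 0.34 ± 0.13 (SE, adjusted p = 0.0311) and gave 0.09 in lactation. A_73_P129801 gave 0.06 in the dry period and was higher in lactation at 0.32 ± 0.12 (adjusted p = 0.0242). Single deer arrays left out ended these calls too: A_73_P094781 without dry replicate 3 or lactation replicate 1, A_73_P260436 without dry replicate 1, 2 or 4, and A_73_P129801 without lactation replicate 2, 3 or 4. A_73_P260436 was also lost without HF dry replicate 4 or PR dry replicate 1 or 2. The brightest HSPD1 probe gave 0.21 and 0.16 and was not called, and neither was A_73_P303616 in either state.

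HSPA1A held the most extreme member value. A_73_P359866 lay at -5.83, -4.43, -5.47 and -5.36 in deer dry and at -5.42, -3.33, -5.88 and -4.70 in deer lactation, against -1.41 to 0.52 and -1.34 to 0.55 in cattle. Every deer array was below every cattle array, and the differences were -4.90 ± 0.49 (SE, 29.8-fold lower) and -4.55 ± 0.49. The other 4 HSPA1A probes gave -0.14 to -0.24 in the dry period, none called, and -0.26 to -0.71 in lactation, where A_73_104629 was called (-0.71, adjusted p = 0.0473). That call was lost with median centring (-0.53, adjusted p = 0.165), with no filter, with array position, with the groups alone, with Cy5 alone and without HF lactation replicate 2, 3 or 4, PR lactation replicate 1, 2 or 4 or deer lactation replicate 1, 3 or 4, where it lay from -0.56 to -0.74 (adjusted p up to 0.178). A_73_P359866 was still above background on all 8 deer arrays, and without deer lactation replicates 2 and 4 its lactation difference was -5.37.

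In the dry period 14 member probes had every deer array above every cattle array of that state and 1 had every deer array below, beside 35.4% of all probes apart in either direction. In lactation these were 12 above and 4 below, beside 29.3%. Over all 24 arrays 9 probes of DNAJB1, HSP90AB1, HSPA5 and HSPA8 were above in all 8 deer arrays, and the HSPA1A probe A_73_P359866 was below, beside 7.8% of all probes above, 9.58% below and 17.4% in either direction. Marker lists moved with species too: of 6 monocyte markers 5 were called higher in deer in the dry period, of 8 neutrophil markers tested 5 were, and of 3 platelet markers 2 were called lower. In lactation 4 monocyte markers were higher and 1 lower, 1 neutrophil marker was higher and 3 lower, and 3 of 5 red cell markers tested were lower. Their part in the chaperone values was not tested.

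**Figure D5:**
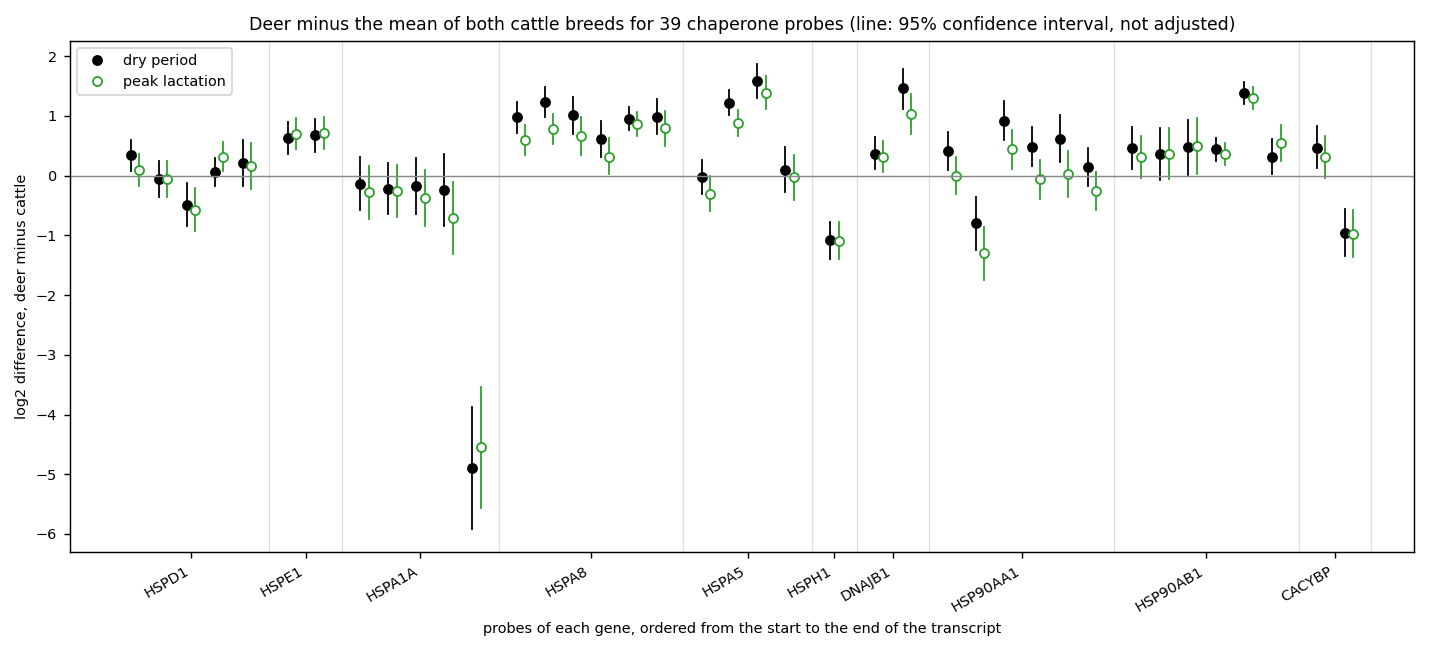
Deer minus cattle difference (log2, vertical axis) of 39 chaperone probes by state (dry period, peak lactation), with 95% confidence intervals that are not adjusted, probes ordered along each transcript. HSPA8, HSPE1 and DNAJB1 lie above 0 on every probe in both states, and the HSPA1A probe near -5 stands apart from the 4 others of its gene.

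Around the members, 103 other genes of the chaperone system were followed, of which 98 are on the array: further HSP70 and HSP90 genes, J proteins, small heat shock proteins, cochaperones, the cytosolic TRiC chaperonin with prefoldin, mitochondrial and endoplasmic reticulum folding genes and heat shock factors. Between lactation and the dry period none was called in HF, PR, deer or cattle together. The lowest p belonged in HF to SYVN1, a ubiquitin ligase of the endoplasmic reticulum, at -0.45 ± 0.18 (SE, adjusted p = 0.511), in PR to CANX, the lectin chaperone calnexin, at 0.40 ± 0.13 (adjusted p = 0.847), in deer to PDIA3, a disulfide isomerase, at 0.58 ± 0.20 (adjusted p = 0.473), and in cattle together to the disulfide isomerase P4HB at 0.36 ± 0.12 (adjusted p = 0.314). The authors' deposited tables hold FKBP5, a steroid receptor cochaperone, for HF, CANX and DNAJB2 for PR and CRYAB for deer.

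Between breeds in the dry period 4 of these 91 tested genes (4.4%) were higher in HF and none lower, beside 2.62% of all probes in either direction and 2.32% higher: SYVN1 (0.82 ± 0.18 SE, adjusted p = 0.0287), the mitochondrial exchange factor GRPEL2 (0.72 ± 0.16), the ribosome-bound J protein DNAJC2 (0.50 ± 0.12) and the mitochondrial protease AFG3L2 (0.76 ± 0.19), which was named after its values were seen because the count is small. Of the 91, 68 were above 0, with a median of 0.27, and without PR dry replicate 1 the count of called genes was 1. It was 2 without HF dry replicate 1, 25 without PR dry replicate 2, and 0 without any other array of these groups or with the slide as a fixed block. At peak lactation none was called between breeds. Between deer and cattle 26 genes were higher and 28 lower in the dry period, 54 of 94 tested (57.4%) beside 56.6% of all probes, among them the ER degradation adaptor SEL1L (1.75 ± 0.14), DNAJB12 (0.98 ± 0.08), the TRiC subunit TCP1 (-3.29 ± 0.17) and the prefoldin subunit PFDN5 (-3.88 ± 0.26). In lactation 33 were higher and 25 lower, 58 of 92 tested (63%) beside 48.6% of all probes, with SEL1L at 1.58 and PFDN5 at -4.28.

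The genes whose level ran most like a member's over the 16 cattle arrays were sought among 12783 genes, by Pearson correlation of the brightest probes. CACYBP ran most like EIF2S2 and OSTC (r = 0.99 for both, 0.97 without PR dry replicate 1), HSPD1 like MTPAP and CNOT7 (0.98, then 0.94), HSPE1 like EIF2S2 (0.97, unchanged at 0.97) and HSPH1 like OSTC (0.96, then 0.95). HSPA5 ran like TADA2A and VPS35 (0.96, then 0.92), and HSPA8 like REEP5 (0.96, then 0.88). HSPA1A had lower values, 0.85 for PTGES3L with and without that array, as did DNAJB1 with ZNF217 (0.85, then 0.83), HSP90AA1 with SMIM13 (0.89, then 0.83) and HSP90AB1 with B4GALT3 (0.92, then 0.76). Among the members CACYBP and HSPD1 had 0.96, CACYBP and HSPE1, CACYBP and HSPA8, and HSPD1 and HSPE1 had 0.95. Without PR dry replicate 1 these became 0.89, 0.93, 0.85 and 0.91, so the order of the pairs changed with that array. These arrays come from 8 animals and share slides and the common reference, so the correlations describe them only.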

How the data were processed

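RNA of 12 animals was measured on 24 2-colour Agilent arrays. Per the file headers, Agilent Feature Extraction wrote for each channel the mean intensity of a spot and the median intensity around it. Per the file headers, the log ratio is the log10 of the processed Cy5 over the processed Cy3 signal. The authors' deposited tables hold normalized log2 values of the transcripts they listed, and only their probe names were used. Feature Extraction is given as 10.7.3.1 per the submitters' processing notes and as 10.10.1.1 per the file headers.

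Mean signals were corrected by normexp (offset 50) and log2 ratios adjusted by loess within arrays in limma 3.58.1 (R 4.3.3, statmod 1.5.0), with 1417 control spots and flagged spots at weight 0, and spots of a probe averaged. Probes with Cy5 above background on at least 3 of 4 arrays of a group were tested with 6 group means, Benjamini-Hochberg adjustment over all of them and a threshold of 0.05. The pairing of an animal's arrays was not part of this model. In simulated data for HF lactation minus dry (32584 probes), 83 of 100 differences of 1 on the log2 scale and 97 of 100 of 2 were recovered, with 6 false calls.

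Members and gene lists were chosen with earlier results of these data known. Every member probe entered every count, though not each value is printed. Of the other chaperone genes the 3 with the lowest p in each direction were eligible for naming, or the 2 lowest where none passed. AFG3L2 was named outside this rule. The 2 genes most alike were sought per member. As a check of pairing, the arrays of an animal correlated above 0.1 after removing group means in all 4 HF animals, 2 PR animals and all 4 deer, and the series text states that each animal was bled in both states. Figures used matplotlib 3.10.9 in Python 3.11.15.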

Additional observations from a re-analysis of the deposited data

Results flagged for a closer look

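Over the brightest probe of each of the 10 genes in 6 groups, 60 groups of 4 arrays were checked for an array far from the others, and 5 had one, where chance gives about 1 in 20. HSP90AB1 lay at -0.93 in PR dry replicate 1 and at -0.13 to -0.03 in the other 3, and that array is the bright one with 703 outlier spots. HSPA8 lay at -0.12 in HF dry replicate 4 and at 0.12 to 0.15 in the others. HSPE1 lay at 0.32 in HF dry replicate 2, whose spike-in correlation was 0.375, and at -0.05 to 0.01 in the others. HSPE1 lay at 0.65 in deer lactation replicate 3 and at 0.74 to 0.76 in the others. HSPH1 lay at -1.27 in deer lactation replicate 1 and at -0.92 to -0.87 in the others.

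HSP90AA1 A_73_P129021 moved in opposite directions with the state in HF and deer. Lactation minus dry averaged 0.36 in HF, where all 4 animals were higher, and -0.22 in deer, where all 4 were lower. The difference between HF and deer was not tested, and the deer effect minus the mean cattle effect for this probe was -0.59 ± 0.27 (SE, limma, adjusted p = 0.59).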

How the results depend on the processing

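Of 134 differences recomputed under the alternatives, 3445 of 3600 values stayed on their side of the threshold, 120 lost a call, 32 gained one and 3 reversed. Among those that stayed, 202 uncalled values changed sign. The reversals were HSPD1 A_73_P094781 in deer minus cattle, dry (0.03 with Cy5 alone), and, with the mean of all probes of a gene, HSP90AA1 (-0.19) and HSPA5 (0.49) in deer minus cattle, lactation. Cy5 alone, scan, the animal test and leaving out deer lactation replicates 2 and 4 were chosen after seeing the data; the last gave 22 members and 48 others in deer minus cattle, lactation. Aquantile scaling left the log ratios as they were, so its values are among those that stayed by construction.

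HF minus PR in the dry period carried most changes in the member count of 3 and the other chaperone count of 4. They became 11 and 40 with median centring, 5 and 8 with array position, 11 and 30 with array weights, and 7 and 10 with the unadjusted Tukey test. Both became 0 with slide or scan as a fixed block, without HF animals 2 and 3 and PR dry replicate 1, with the 2 groups alone, with Cy5 alone and with the adjusted Tukey test, and ran from 0 to 10 and 0 to 25 with 1 array left out. Over all probes the count of 862 ran from 0 to 5998, the latter with median centring. The replicate block as a random term kept a member count of 3 (adjusted p from 0.0299 to 0.0396), and as a fixed term it left lactation at 0 member calls, with HSPD1 in cattle at 0.32 (adjusted p = 0.342), while over all probes in cattle it raised the count from 1 to 13.

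Array weights, whose estimation did not converge, gave 9 members and 35 others in deer lactation minus dry, 3 and 20 in the deer minus cattle effect and 3 and 7 in HF minus PR, lactation. In that contrast the unadjusted Tukey test gave 2 and 5, and the groups alone 1 other gene. Deer minus cattle, dry, had 17 members with array position and 22 to 27 with 1 array left out (others 49 to 60), and lactation 18 to 22 (others 51 to 60), with 38 others under Cy5 alone. Differences between cattle had 1 member with median centring, 0 with Cy5 alone and 5 without PR dry replicate 1.

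The number of arrays limits precision: the brightest HSPA1A probe in HF has an interval from -1.06 to 1.28 from group means, which do not use the pairing, while the 4 animals' own differences ran from -0.45 to 0.48.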
